A study of Mus musculus with 6 samples.

Results

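The 8 genes of the sphingosine-1-phosphate (S1P) system described here were the receptors S1pr1, S1pr2, S1pr3 and S1pr5, the kinases Sphk1 and Sphk2, the transporter Spns2 and the lyase Sgpl1. They were taken by symbol from the feature list, as 8 of its 32285 genes, and were followed over 14 cell types. S1P is a lysophospholipid made inside cells when a sphingosine kinase phosphorylates sphingosine. It is exported by transporters such as Spns2, acts on G protein-coupled receptors at the cell surface, and is removed for good when the lyase Sgpl1 cleaves it. In the brain, S1P receptors are known from astrocytes, endothelium and oligodendrocytes, where S1pr1 is tied to astrocyte responses and to vessel barrier function, and S1pr5 to the oligodendrocyte lineage.

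The mice modelled post-hemorrhagic hydrocephalus, in which bleeding products enter the ventricles of the newborn brain. C57BL/6 S-56 neonates received lysophosphatidic acid (LPA, 18:1), a blood-borne lipid related to S1P but with receptors of its own, or vehicle (bovine serum albumin in saline), injected into a lateral ventricle at P7. Whole brains without the olfactory bulbs and cerebellum were taken at P15, and nuclei that did not stain for the neuronal protein NeuN were sorted for single-nucleus RNA sequencing. The groups were 3 LPA libraries and 3 vehicle libraries, with no genetic change in either; LPA 1, vehicle 1 and vehicle 3 read as male from Xist and Y-linked transcripts, and the others as female. The labels give a replicate number for each library and nothing on litter, and p-values measure the spread between these libraries.

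The libraries held 8639 to 12894 nuclei, with 10000 targeted in each, and 48852970 to 65688644 unique molecular identifiers (UMIs, 1 per captured RNA molecule). Filters left 7579 to 11745 nuclei per library, of which 15.3% to 18.5% lay in clusters that no marker list named, and 12.3% to 15.4% were called doublets by Scrublet but kept in the main counts. Pairs of libraries shared 16 to 39 barcodes. Neurons formed the largest class, with 13496 nuclei, although the gate was set against NeuN, and no lymphocyte or neutrophil cluster was found. Levels below are CPM, the UMIs of a gene per 1000000 UMIs of a cell type in a library, and a log2 fold change is LPA over vehicle with its standard error (SE). A call needed an adjusted p below 0.05 together with a size of 0.25 or more on the log2 scale, in either direction. The p came from the edgeR quasi-likelihood test, adjusted by Benjamini-Hochberg over all genes tested in that type. Whether the groups overlapped is given below as a description. With so few libraries per group, groups can lie apart by chance, and the share of all genes that did so is not given. Where a difference was not called, lack of overlap is therefore not evidence of a change.

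All 8 genes lie on the GRCm38 assembly (GENCODE M21). S1pr1 lies at chr3:115710433-115715072 on the minus strand, S1pr2 at chr9:20962361-20976781 (minus), S1pr3 at chr13:51408639-51422797 (plus) and S1pr5 at chr9:21242912-21248443 (minus). Sphk1 lies at chr11:116530925-116536674 (plus), Sphk2 at chr7:45709467-45718002 (minus), Spns2 at chr11:72451638-72489904 (minus) and Sgpl1 at chr10:61098642-61147703 (minus). Sequence before the RefSeq start site was searched for 4 motifs on both strands: the GC box, the TATA box, a SOX-type motif and a PU.1-type motif. The GC box was spelled GGGCGG. The TATA box was taken as TATAAA. The SOX-type motif was ACAAAG. A variant of it ending in ATG in place of AAG was searched as well. The PU.1-type motif was AGGAAGT. Among 32851 mouse promoters of the same 250-base length, 32.7% held a GC box, 12.4% TATAAA, 25.2% a SOX-type motif and 7.69% the PU.1-type motif. The stretches for S1pr3, Spns2 and Sgpl1, which were called in a cell type (as was S1pr1, not shown), and for S1pr5, which had its highest levels in the same lineage as Spns2, follow 5′ to 3′ on the strand of the gene (RefSeq, GRCm38.p6). Capitals mark motif matches, and a GC box on the other strand reads CCGCCC. In Spns2 the second SOX-type match lies on the other strand and reads CTTTGT.
S1pr3, chr13:51408368-51408617: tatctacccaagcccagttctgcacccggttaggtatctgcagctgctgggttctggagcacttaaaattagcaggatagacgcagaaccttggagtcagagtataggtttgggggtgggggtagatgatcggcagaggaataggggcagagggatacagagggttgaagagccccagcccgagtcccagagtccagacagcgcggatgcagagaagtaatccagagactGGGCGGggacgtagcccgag
S1pr5, chr9:21248444-21248693: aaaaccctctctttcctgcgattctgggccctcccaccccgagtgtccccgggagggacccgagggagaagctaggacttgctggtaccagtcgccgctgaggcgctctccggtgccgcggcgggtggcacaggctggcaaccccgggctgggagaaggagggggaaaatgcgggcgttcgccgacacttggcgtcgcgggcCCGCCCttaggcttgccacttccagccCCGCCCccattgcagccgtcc
Spns2, chr11:72475028-72475277: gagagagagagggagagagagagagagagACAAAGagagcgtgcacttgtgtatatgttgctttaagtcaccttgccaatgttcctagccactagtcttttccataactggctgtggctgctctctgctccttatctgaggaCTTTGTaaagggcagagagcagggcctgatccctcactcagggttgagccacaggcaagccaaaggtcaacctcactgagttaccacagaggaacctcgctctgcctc
Sgpl1, chr10:61147685-61147934: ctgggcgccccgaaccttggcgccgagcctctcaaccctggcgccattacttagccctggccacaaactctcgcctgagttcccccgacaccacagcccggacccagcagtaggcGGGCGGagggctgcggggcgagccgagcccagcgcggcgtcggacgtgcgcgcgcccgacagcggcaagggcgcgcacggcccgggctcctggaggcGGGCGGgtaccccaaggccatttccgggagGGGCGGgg
The S1pr3 and S1pr5 windows lie upstream of the annotated genes. The Spns2 window lies inside the annotated gene, in an intron, before the start of the RefSeq transcript, and 19 bases of the Sgpl1 window fall in its first annotated exon. The Sgpl1 window is the richest in CpG of these 4, with 31 CpG dinucleotides, 74.8% G+C and 3 GC boxes, against a median of 6 CpG and 52.4% over all promoters. S1pr5 has 22 CpG and 2 GC boxes, S1pr3 has 9 CpG and 1 GC box, and Spns2 has 2 CpG, 2 SOX-type matches and no GC box. None of the 4 windows holds TATAAA or the PU.1-type motif. These matches describe the letters alone.

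Each gene had its own distribution over the cell types. S1pr1 had its highest mean levels in astrocytes and endothelium, S1pr3 in mural cells of the vessels, S1pr5 and Spns2 in oligodendrocytes, Sphk1 in meningeal fibroblasts and Sgpl1 in macrophages and microglia, while Sphk2 was low in every type. Means below are over the 6 libraries with their SD. Differences between neighbouring types in each order were tested over libraries (two-sided exact sign-flip permutation test, 104 neighbour pairs over the 8 genes), where the smallest p that 6 libraries allow is 0.0312. That value was reached by 14 pairs and the smallest adjusted p was 0.232, so neighbours in these orders are not resolved after correction, and the orders are descriptions.

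**Figure D1:**
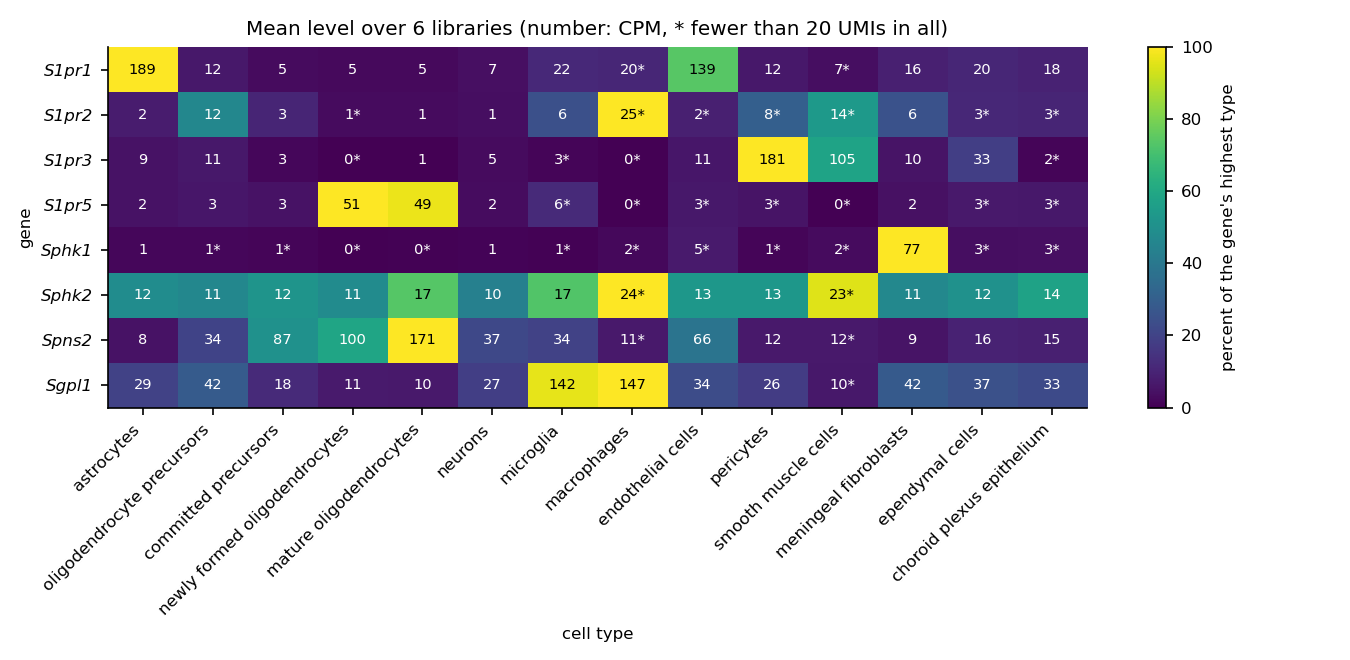
Mean level of each gene (rows) in each of the 14 cell types (columns), printed in CPM over the 6 libraries and coloured as a percent of the gene's highest type. An asterisk marks a mean resting on fewer than 20 UMIs in all. S1pr1 stands highest in astrocytes (189 CPM), S1pr3 in pericytes (181), Spns2 in mature oligodendrocytes (171) and Sphk1 in meningeal fibroblasts (76.5).

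Among the receptors, S1pr1, which couples to Gi and is the best studied S1P receptor of endothelium, averaged 189 CPM ± 32.5 (SD, n = 6) in astrocytes and 139 CPM ± 29.3 in endothelial cells. Its next highest mean was 21.5 CPM ± 5.81 in microglia, and the mean was 4.52 CPM in mature oligodendrocytes. Astrocytes held 58.1% of its 10560 UMIs on average (54.7% to 61.2% per library), and unnamed clusters held 23.5%. S1pr3, a receptor that couples to Gq and G12/13 as well as Gi and is known from mural cells, averaged 181 CPM ± 33.8 in pericytes and 105 CPM ± 35.4 in smooth muscle cells, the second from 41 UMIs. Ependymal cells followed at 33.3 CPM ± 5.72, and S1pr3 had no UMI in macrophages. S1pr5 averaged 50.6 CPM ± 8.01 in newly formed oligodendrocytes and 49.2 CPM ± 4.71 in mature oligodendrocytes, a difference within the spread between libraries. Every other type was at or below 6.12 CPM for S1pr5, and it averaged 2.50 CPM in committed precursors and 3.05 CPM in oligodendrocyte precursors, so its rise along the lineage came between the committed and newly formed stages. S1pr2 was the rarest receptor, with 693 UMIs in all nuclei. Its highest mean, 25.4 CPM in macrophages, rested on 9 UMIs, and its best counted level was 11.8 CPM ± 3.34 in oligodendrocyte precursors, from 134 UMIs.

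The kinases differed in breadth. Sphk1, the mostly cytosolic kinase induced by growth factors, averaged 76.5 CPM ± 13.7 in meningeal fibroblasts and at most 5.41 CPM in any other type, and meningeal fibroblasts held 58.8% of its 1551 UMIs. Within the meningeal class its level ranged over the clusters. The cluster led by Ptgds, Ranbp3l and Slc6a20a had 207, 239 and 318 CPM in LPA 1 to 3 and 252, 307 and 321 CPM in vehicle 1 to 3. The cluster led by Dcdc2a, Sidt1 and Bicc1 ranged from 17.4 to 88.7 CPM, and the other 4 meningeal clusters from 0 to 29.1 CPM. Sphk2, the kinase also found in the nucleus, lay between 10.3 and 23.7 CPM in all 14 types. Its highest means, in macrophages and smooth muscle cells, rested on 10 and 9 UMIs, and mature oligodendrocytes, from 599 UMIs, had 17.4 CPM ± 1.74.

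Spns2, which exports S1P from endothelial and other cells, increased stage by stage along the oligodendrocyte lineage. It averaged 34.3 CPM ± 4.34 in oligodendrocyte precursors, 86.6 CPM ± 7.34 in committed precursors, 100 CPM ± 14.4 in newly formed and 171 CPM ± 10.7 in mature oligodendrocytes. The ranges of the 6 libraries were 30.2 to 40.6, 76.2 to 95.5, 83.1 to 126 and 158 to 186 CPM, so only the committed and newly formed stages overlapped. Endothelial cells had 65.8 CPM ± 6.92 and neurons 36.9 CPM ± 3.89. Mature oligodendrocytes held 39.0% and neurons 19.3% of the 14973 Spns2 UMIs. Sgpl1, the enzyme of the endoplasmic reticulum that cleaves S1P irreversibly, averaged 147 CPM ± 38.9 in macrophages and 142 CPM ± 85.3 in microglia, where the large SD spans both treatments. All other types were at or below 42.4 CPM, and the lowest well counted level was 10.2 CPM ± 1.49 in mature oligodendrocytes. Along the oligodendrocyte lineage Sgpl1 thus ran in the opposite order to Spns2, from 42.4 CPM in precursors through 17.7 CPM in committed precursors and 10.7 CPM in newly formed cells.

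The genes most like 7 of the members over the 14 types, by Pearson r of log2(CPM + 1) among 12644 genes, are given as a description. They were Lxn (0.94), Lfng (0.91) and Atl2 (0.91) for S1pr1, Xpc (0.95), Ednra (0.91) and Pth1r (0.90) for S1pr3, and Trim59 (0.95), Casr (0.95) and Gm42745 (0.93) for S1pr5. For Sphk1 they were Slc22a2 (0.96), Ptgds (0.95) and Gm33906 (0.95), for Spns2 Ppp1r16b (0.94), Gm26936 (0.91) and BC046251 (0.90), and for Sgpl1 Twistnb (0.96), Ofd1 (0.94) and Ankle2 (0.93). The genes for S1pr2 (Mre11a, Zfp330 and Cklf) rest on its sparse macrophage and smooth muscle counts. Those for Sgpl1 also had their highest means in macrophages, a class of 215 nuclei, at 24.6 CPM for Twistnb, 56.3 for Ofd1 and 86.2 for Ankle2. All types come from the same 6 libraries, and the list of types is weighted towards the oligodendrocyte lineage and the vessels.

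Of the 112 combinations of gene and cell type, 59 passed the filter on low counts and were tested. Sgpl1 was tested in 13 types, Spns2 in 11, Sphk2 in 10, S1pr1 in 9, S1pr3 in 6, S1pr2 and S1pr5 in 4 each, and Sphk1 in 2. There were 2 calls higher with LPA, Sgpl1 in microglia and S1pr3 in astrocytes, and 2 calls lower, S1pr1 in astrocytes and Spns2 in ependymal cells. The share of all genes called higher was 5.54% in microglia and 5.09% in astrocytes, and the share called lower was 3.75% in microglia, 3.2% in astrocytes and 1.64% in ependymal cells, where 2.08% were called higher. The median log2 fold change of the 59 pairs was -0.08.

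**Figure D2:**
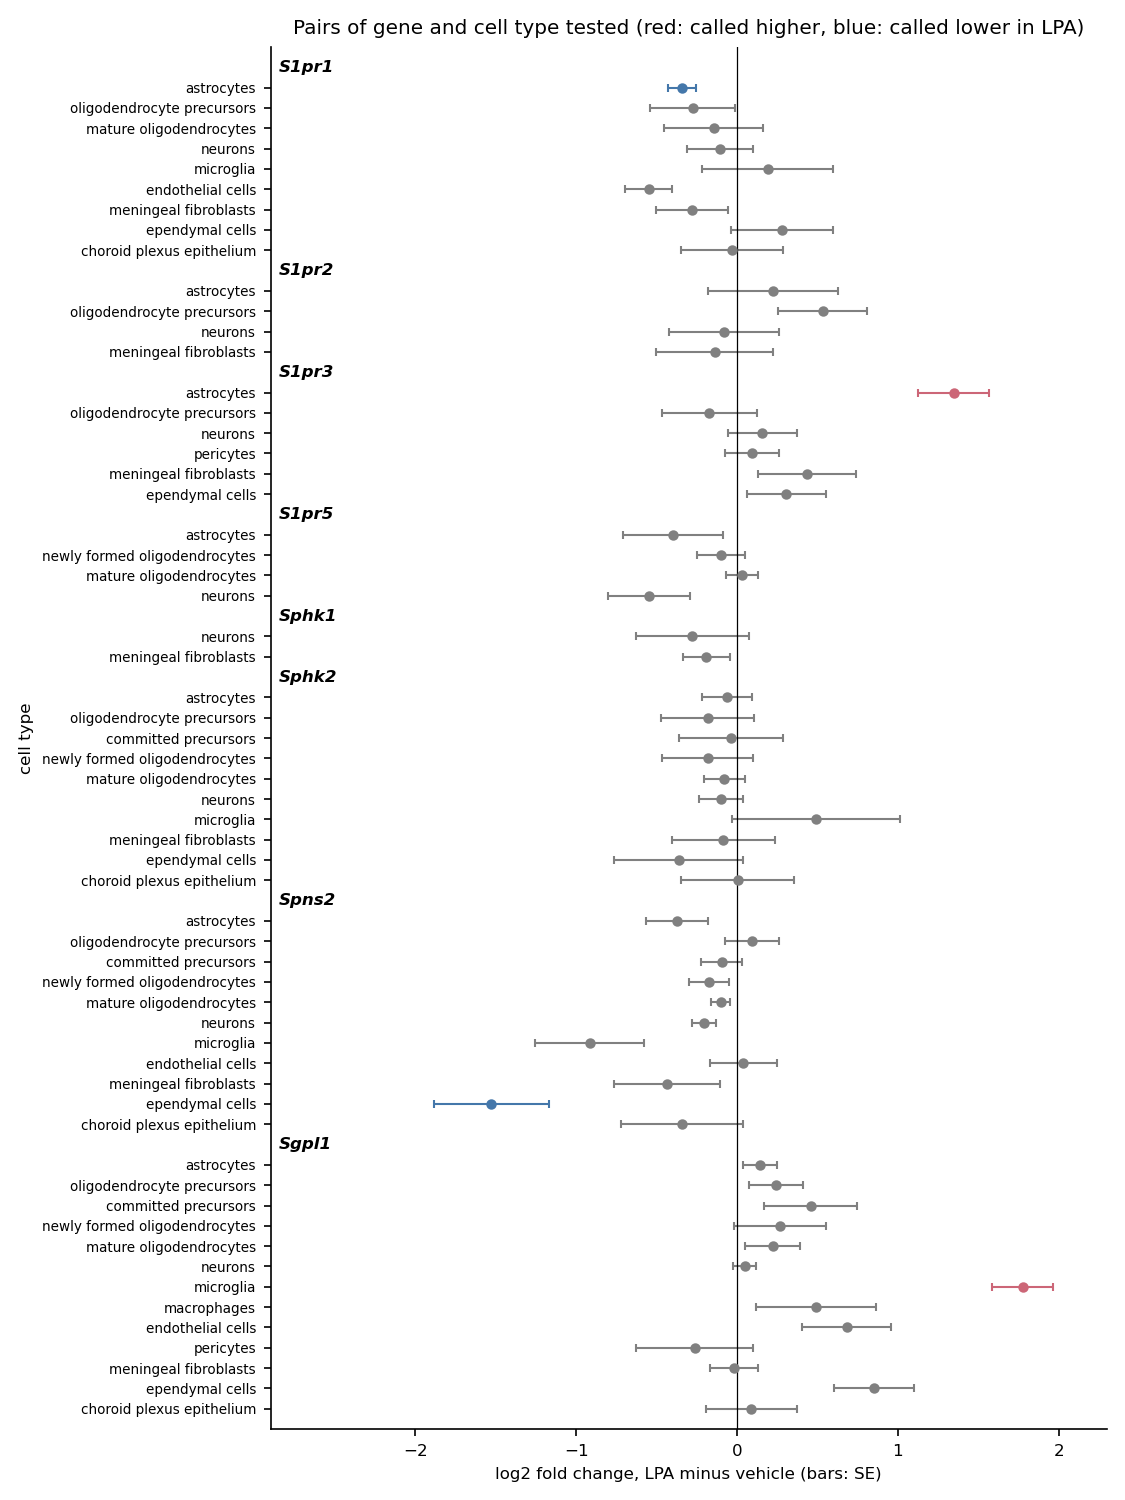
Log2 fold change (LPA over vehicle) of every tested combination of gene and cell type, with bars of 1 SE; red points were called higher with LPA, blue points lower, and grey points were not called. Sgpl1 in microglia (1.78) and S1pr3 in astrocytes (1.35) lie farthest to the right, and Spns2 in ependymal cells (-1.53) farthest to the left.

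Sgpl1 rose in microglia, the brain's resident phagocytes. It stood at 219, 216 and 225 CPM in LPA 1 to 3 and at 66.5, 63.2 and 63.3 CPM in vehicle 1 to 3. Every LPA library was above every vehicle library, and the spread within each group was small against the gap. Vehicle 1 to 3 held 111, 317 and 97 microglia, with 11, 30 and 6 Sgpl1 UMIs when called doublets were left out. At such counts the closeness of the vehicle values says little about their spread. The log2 fold change was 1.78 (SE 0.19, adjusted p = 2.68e-09), a 3.42-fold difference. The LPA libraries also held more microglia (4.70% to 5.48% of kept nuclei against 0.83% to 2.72%), and microglia carried 13.4% of the Sgpl1 UMIs in the LPA libraries and 1.38% in the vehicle libraries.

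The make-up of the microglia differed between the groups, and Sgpl1 differed between its clusters. Activated microglia, the clusters led by Gpnmb, Anapc15 and Stab1 and by Plek, Spp1 and Cd86, made up 29.5%, 32.4% and 42.0% of microglia in LPA 1 to 3, against 0%, 0% and 1.03% in vehicle 1 to 3. They had 388, 387 and 357 CPM of Sgpl1 in the LPA libraries, and the vehicle libraries held 1 such nucleus. A further cluster, led by Fcrls, Runx1 and Anapc15, made up 13.1% to 21.1% of LPA microglia and 1.26% to 2.06% of vehicle microglia, and had 193, 200 and 177 CPM in LPA 1 to 3. Without the activated clusters, but with this Fcrls-led cluster kept, Sgpl1 was 134, 112 and 114 CPM in LPA against 66.5, 63.2 and 49.4 CPM in vehicle. It was called higher (log2 fold change 0.94, SE 0.24, adjusted p = 0.0187, with 0.676% of genes called higher there). In these microglia the macrophage markers summed to 937 to 1185 CPM in LPA and 395 to 550 CPM in vehicle, and the 10 markers of activated microglia to 912 to 1451 CPM against 568 to 855 CPM. In the cluster that held most vehicle microglia, led by Selplg, Csf1r and Inpp5d, the values were 111, 91.6 and 86.9 CPM in LPA and 56.0, 73.0 and 93.7 CPM in vehicle. The groups overlapped there and the difference was not called (log2 fold change 0.43, SE 0.32, adjusted p = 0.898, 95 UMIs).

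Markers of other states moved with Sgpl1 across the microglia. The summed level of the 11 macrophage markers was 1864 to 2428 CPM in LPA microglia and 411 to 550 CPM in vehicle microglia, with all 5 tested markers called higher and none of the 11 at 0 throughout. Of the 12 microglia markers, 11 were called lower, Csf1r and P2ry12 among them. Spp1 and Gpnmb, markers of activated microglia, had no UMI in vehicle microglia and 261 to 363 and 387 to 574 CPM in LPA microglia. In the separate macrophage class Sgpl1 was 190, 204 and 129 CPM in LPA and 116, 126 and 119 CPM in vehicle, all LPA values being higher, with a difference that was not called (log2 fold change 0.49, SE 0.37, adjusted p = 0.859). No gene was called in macrophages (0% of 1940 by edgeR, 124 of them at an unadjusted p below 0.05). The part of these markers in the Sgpl1 difference was not tested.

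**Figure D3:**
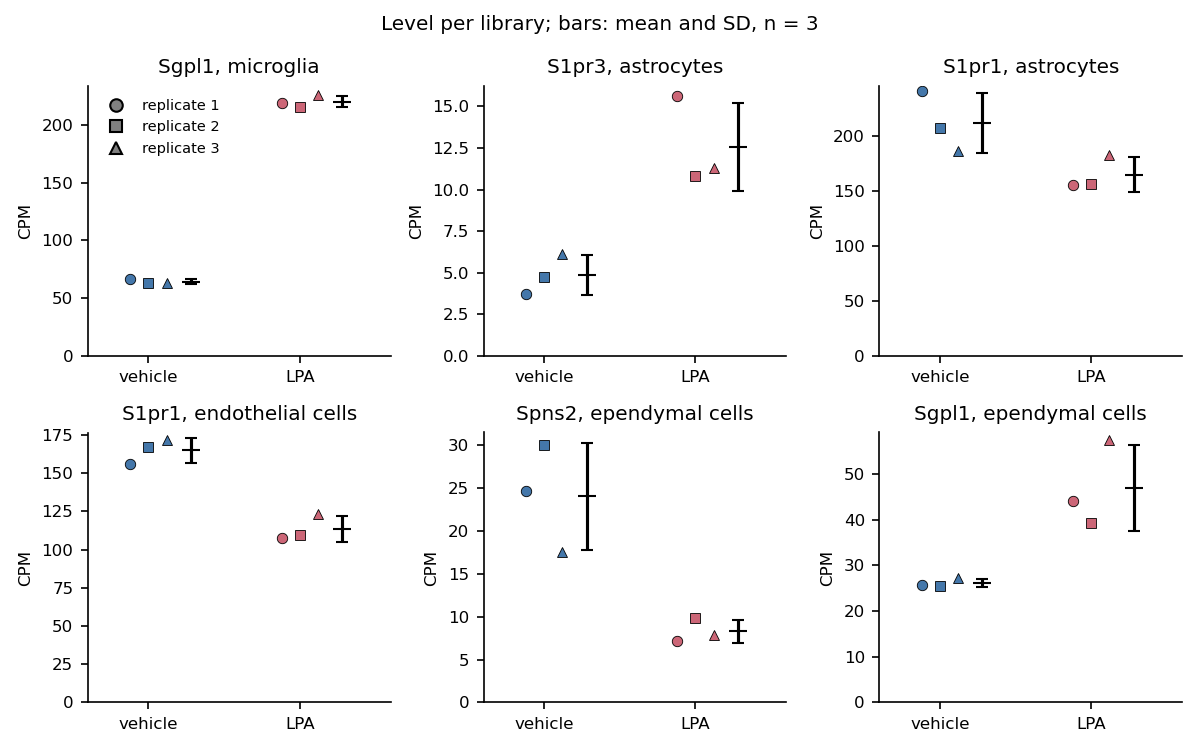
CPM in each library for the 4 called combinations of gene and cell type and for S1pr1 in endothelial cells and Sgpl1 in ependymal cells, vehicle in blue and LPA in red, with the replicate number as marker shape and the mean and SD (n = 3) beside the points. The groups are apart for Sgpl1 in microglia (216 to 225 against 63.2 to 66.5) and close for S1pr1 in astrocytes (155 to 183 against 187 to 241).

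Microglia had the lowest adjusted p for Sgpl1 and were therefore the reference type. The rise of Sgpl1 in microglia was set against its change in each of the 12 other types, in a separate fit for each pair of types. It was larger than in 9 of them (edgeR interaction, adjusted p below 0.05): neurons, meningeal fibroblasts, astrocytes, mature and newly formed oligodendrocytes, committed and oligodendrocyte precursors, choroid plexus epithelium and pericytes. It did not differ past the threshold from macrophages (difference in log2 fold change 1.22, SE 0.47, adjusted p = 0.172), endothelial cells (1.09, SE 0.38, adjusted p = 0.119) or ependymal cells (0.99, SE 0.37, adjusted p = 0.149). In ependymal cells, which line the ventricles, Sgpl1 was 44.1, 39.2 and 57.5 CPM in LPA and 25.8, 25.4 and 27.2 CPM in vehicle. These groups did not overlap, and the log2 fold change of 0.85 (SE 0.25) missed the threshold at an adjusted p of 0.0583. It passed at an adjusted p of 0.0301 with no filter on low counts and at 0.0457 without LPA 2, and was farther from it with DESeq2 (adjusted p = 0.264) and without called doublets (0.103). The make-up of the ependymal class differed too. The 11 macrophage markers summed to 81.9 to 114 CPM in LPA and 30.03 to 49.3 CPM in vehicle ependymal cells (1 of 2 tested called higher, 1 of the 11 at 0 throughout), and the 8 markers of dividing cells to 155 to 246 CPM against 87.8 to 99.2 CPM (1 of 3 tested called higher). At the finer Leiden resolution, a cluster of 103 ependymal nuclei led by Cdc20b, Deup1 and Crocc2 held 28, 28 and 39 nuclei of LPA 1 to 3 and 4, 1 and 3 of vehicle 1 to 3. The part of these in the Sgpl1 values was not tested. In endothelial cells Sgpl1 was 43.7, 38.0 and 46.2 CPM in LPA and 22.3, 25.9 and 30.1 CPM in vehicle, again without overlap (log2 fold change 0.68, SE 0.28, adjusted p = 0.605, in a type where 0.13% of genes were called). In the other types the log2 fold change of Sgpl1 lay between -0.26 in pericytes and 0.46 in committed precursors, with no call.

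S1pr3 rose in astrocytes. Its level was 15.6, 10.8 and 11.3 CPM in LPA 1 to 3 and 3.75, 4.76 and 6.14 CPM in vehicle 1 to 3. All LPA values lay above all vehicle values, at levels far under those of pericytes. The log2 fold change was 1.35 (SE 0.22, adjusted p = 0.000624), a 2.54-fold difference.

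In the LPA libraries most of the astrocyte S1pr3 was in 1 cluster, rich in Gfap, the intermediate filament of reactive and fibrous astrocytes. That cluster made up 24.4%, 24.6% and 26.2% of astrocytes in LPA 1 to 3 and 9.94%, 11.9% and 10.9% in vehicle 1 to 3. Its S1pr3 level was 46.3, 27.6 and 26.0 CPM in LPA and 3.97, 7.63 and 5.24 CPM in vehicle, with no overlap (log2 fold change 2.54, SE 0.47, adjusted p = 0.000936, where 5.88% of genes were called higher). In the other astrocytes it was 5.75, 5.70 and 6.24 CPM in LPA and 3.73, 4.49 and 6.22 CPM in vehicle, overlapping groups with no call (log2 fold change 0.30, SE 0.25, adjusted p = 0.636). The Gfap-rich values rest on 70, 46 and 37 UMIs in LPA and on 1, 4 and 2 UMIs in vehicle.

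**Figure D4:**
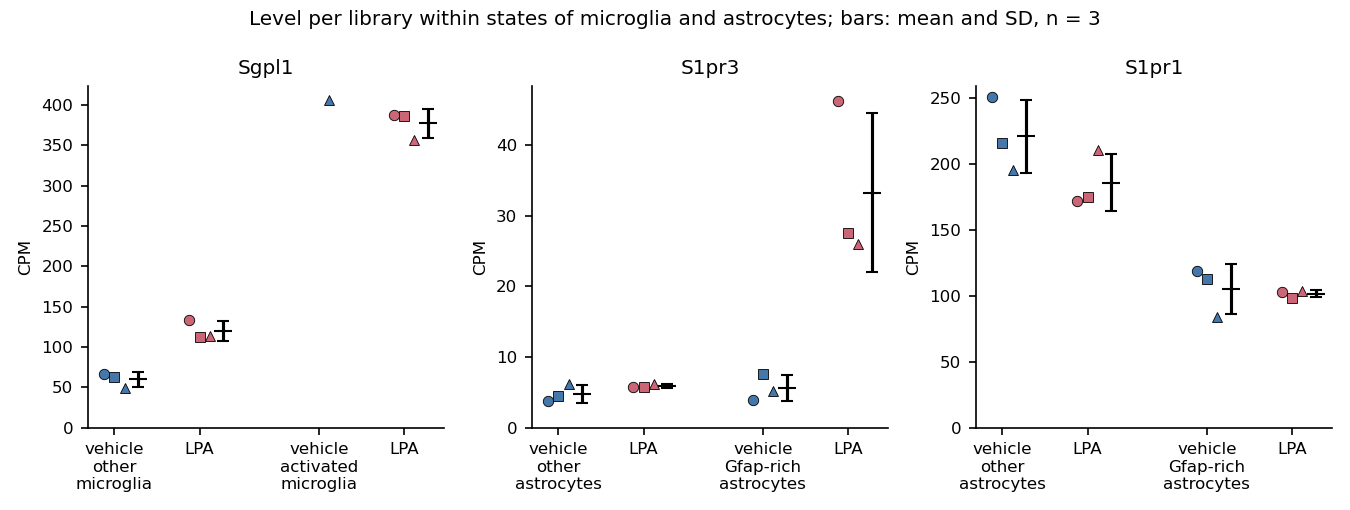
Levels (CPM) in each library of Sgpl1 in microglial subsets and of S1pr3 and S1pr1 in astrocyte subsets, vehicle in blue and LPA in red, with the mean and SD (n = 3) beside the points and the same marker shape for a replicate number in every panel. Activated microglia have a single vehicle point, which is 1 nucleus; S1pr3 in Gfap-rich astrocytes is 26.0 to 46.3 in LPA and 3.97 to 7.63 in vehicle.

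Ependymal markers also moved in astrocytes, with a summed level of 166 to 183 CPM in LPA and 80.9 to 99.7 CPM in vehicle and 7 of 12 tested called higher, while none of the 13 markers was at 0 throughout. The 12 smooth muscle markers were also higher, at 126 to 137 CPM in LPA and 77.8 to 90.1 CPM in vehicle, with 1 of 5 tested called higher. Pericyte markers overlapped between the groups, at 291 to 312 CPM in LPA and 280 to 321 CPM in vehicle. For each 1000 UMIs of ependymal markers, LPA astrocytes held 59.1 to 91.0 UMIs of S1pr3 and vehicle astrocytes 37.9 to 61.6, whereas ependymal cells held 1.87 to 2.81. For each 1000 UMIs of pericyte markers, LPA astrocytes held 34.8 to 53.7 and vehicle astrocytes 11.6 to 21.9, and pericytes held 9.15 to 15.7. In the Gfap-rich cluster the ependymal list was 421 to 536 CPM in LPA and 408 to 608 CPM in vehicle, and the smooth muscle list was 278 to 331 CPM in LPA and 147 to 282 CPM in vehicle, both overlapping. The part of these markers in the S1pr3 difference was not tested. S1pr3 shares its locus with Gm32834 on the opposite strand, which was 12.3 to 14.9 CPM in LPA astrocytes and 9.19 to 16.7 CPM in vehicle astrocytes (log2 fold change 0.12, adjusted p = 0.775).

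The change of S1pr3 in astrocytes was larger than in pericytes (difference 1.21, SE 0.26, adjusted p = 0.00236), oligodendrocyte precursors (1.53, SE 0.35, adjusted p = 0.00674) and neurons (1.24, SE 0.29, adjusted p = 0.0199). It did not differ past the threshold from ependymal cells (1.08, SE 0.34, adjusted p = 0.0869) or meningeal fibroblasts (0.89, SE 0.36, adjusted p = 0.276). In pericytes, where S1pr3 was highest, it was 190, 213 and 154 CPM in LPA and 222, 171 and 135 CPM in vehicle. The groups overlapped (log2 fold change 0.09, SE 0.17, adjusted p = 0.941), with 0.274% of genes called in pericytes.

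S1pr1 fell in astrocytes by 0.34 on the log2 scale. It was 155, 157 and 183 CPM in LPA 1 to 3 and 241, 207 and 187 CPM in vehicle 1 to 3. The groups did not overlap, but LPA 3 and vehicle 3 lay close (SE 0.09, adjusted p = 0.0190, a 1.27-fold difference). The call was lost without LPA 1 (adjusted p = 0.0741), without LPA 2 (0.113) or without vehicle 1 (0.0543). It was also lost within the subsets, which hold fewer nuclei, so a lost call does not show that the difference was gone. In the astrocytes outside the Gfap-rich cluster S1pr1 was 172, 175 and 211 CPM in LPA and 251, 216 and 196 CPM in vehicle, overlapping groups. The log2 fold change there was -0.21 (SE 0.09, edgeR unadjusted p = 0.0286, adjusted p = 0.271), with 0.965% of genes called lower. In the Gfap-rich cluster it was 103, 98.5 and 103 CPM in LPA and 119, 113 and 83.9 CPM in vehicle, with a log2 fold change of 0.06 (SE 0.16, adjusted p = 0.888). Gfap-rich astrocytes had less S1pr1 than the others in every library of both groups, and they were a larger share of astrocytes in the LPA libraries than in the vehicle libraries. The part of this share in the S1pr1 difference was not tested. The 12 astrocyte markers summed to 15933 to 17082 CPM in LPA and 17299 to 18611 CPM in vehicle, with 4 called lower.

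In endothelial cells S1pr1 was 108, 110 and 123 CPM in LPA and 156, 167 and 172 CPM in vehicle. These groups did not overlap, which counts only as a description. The log2 fold change of -0.55 (SE 0.15) was larger than in astrocytes, but it was not called (unadjusted p = 0.000998, adjusted p = 0.192). With no mitochondrial filter on nuclei it was called, at -0.59 with an adjusted p of 0.0339, and with DESeq2 it was not, at -0.55 with an adjusted p of 1.00. By cluster, the 734 nuclei led by Slco1a4, Flt1 and Mecom had 81.5, 97.7 and 110 CPM in LPA against 139, 156 and 156 CPM in vehicle. The 120 nuclei led by Mecom, Bmx and Sox17 had 107, 114 and 119 CPM against 240, 226 and 272 CPM. These values rest on 19, 13 and 24 nuclei in LPA 1 to 3 and 13, 25 and 26 in vehicle 1 to 3. The 240 nuclei led by Cldn5, Cxcl12 and Ly6c1 had 144, 150 and 171 CPM against 199, 174 and 210 CPM. The LPA libraries were the lower ones in these 3 clusters, none of which was called (adjusted p = 0.262, 0.981 and 0.830), and the groups overlapped in the fourth, led by Adgrl4, Fam129a and Vwf. Cldn5 and Flt1, from the longer list of endothelial markers, had log2 fold changes of -0.20 (SE 0.13) and 0.13 (SE 0.10) in the class, with no call. The rest of the list is not reported here, and these genes alone do not show whether the class changed. The S1pr1 effect in astrocytes differed past the threshold from that in none of the 8 other types tested, with 1 unadjusted p below 0.05, in ependymal cells (difference -0.63, SE 0.31, unadjusted p = 0.0482, adjusted p = 0.373).

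S1pr5 and S1pr2 were called in no type by edgeR or DESeq2, and had no unadjusted p below 0.05 by edgeR within a type. In mature oligodendrocytes S1pr5 was 43.9, 50.2 and 53.6 CPM in LPA and 53.7, 43.0 and 51.1 CPM in vehicle (log2 fold change 0.03, SE 0.10, adjusted p = 0.948, with 0.561% of genes called). In newly formed oligodendrocytes the log2 fold change was -0.10 (SE 0.15, adjusted p = 0.949, with 0.121% of genes called), and both groups overlapped in either type. In neurons S1pr5 was low, at 1.13 to 1.68 CPM in LPA and 1.90 to 2.23 CPM in vehicle, without overlap (log2 fold change -0.55, SE 0.25, adjusted p = 0.670, with 0.108% of genes called). S1pr2 in oligodendrocyte precursors was 9.68, 15.5 and 16.4 CPM in LPA and 8.46, 10.98 and 9.67 CPM in vehicle, overlapping groups with a log2 fold change of 0.53 (SE 0.28, adjusted p = 0.613, with 0.379% of genes called).

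Neither kinase was called in any type by edgeR or DESeq2, nor had an unadjusted p below 0.05 by edgeR. Sphk1 in meningeal fibroblasts was 52.1, 85.0 and 75.5 CPM in LPA and 71.8, 84.8 and 90.0 CPM in vehicle (log2 fold change -0.19, SE 0.14, adjusted p = 0.729, with 1.16% of genes called). The groups overlapped there and within the Ptgds-led cluster (log2 fold change -0.25, SE 0.15, adjusted p = 0.820). With all kept nuclei of a library summed, however, Sphk1 was 2.91, 4.85 and 3.404 CPM in LPA against 6.82, 8.34 and 8.33 CPM in vehicle, and was called lower (log2 fold change -1.07, SE 0.18, adjusted p = 0.0121, with 2.21% of genes called lower). The LPA libraries held 3.58% to 4.94% meningeal fibroblasts and the vehicle libraries 8.62% to 9.58%. In such a whole-library sum, fewer cells of a type and less RNA per cell cannot be told apart. In the same sums Sgpl1 was 32.5, 34.2 and 33.6 CPM in LPA against 26.4, 24.99 and 26.0 CPM in vehicle (log2 fold change 0.38, SE 0.05, adjusted p = 0.00553), S1pr3 was also called higher (0.40, SE 0.09, adjusted p = 0.0349, with 3.41% of genes called higher), and S1pr1 was 38.8, 41.6 and 39.1 CPM against 40.7, 44.96 and 34.5 CPM (adjusted p = 0.991). S1pr5 was 9.30, 11.9 and 12.5 CPM in LPA against 15.2, 13.1 and 13.5 CPM in vehicle (log2 fold change -0.30, SE 0.11, adjusted p = 0.177). Spns2 was 49.7, 53.2 and 53.6 CPM against 66.5, 59.9 and 58.1 CPM (-0.23, SE 0.06, adjusted p = 0.0563). For both genes all LPA values lay below all vehicle values, without a call. Mature oligodendrocytes made up 8.48% to 9.10% of kept nuclei in LPA and 12.2% to 13.2% in vehicle.

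Sphk2 had log2 fold changes between -0.36 in ependymal cells and 0.49 in microglia over 10 types, with adjusted p of at least 0.686. In mature oligodendrocytes it was 18.6, 17.3 and 14.6 CPM in LPA and 19.4, 16.5 and 18.3 CPM in vehicle. Sphk2 overlaps Dbp and Rpl18 on the opposite strand, and Sphk1 overlaps Gm29292, which was 13.8 CPM in meningeal fibroblasts.

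Spns2 fell in ependymal cells. It was 7.19, 9.81 and 7.84 CPM in LPA 1 to 3 and 24.6, 30.03 and 17.5 CPM in vehicle 1 to 3, from 8, 9 and 9 UMIs against 21, 13 and 9 UMIs. The groups did not overlap and the log2 fold change was -1.53 (SE 0.36, adjusted p = 0.0184). The call was lost without LPA 1 (adjusted p = 0.0651), LPA 3 (0.0908), vehicle 1 (0.0989) or vehicle 2 (0.0821), while the log2 fold change stayed between -1.68 and -1.39 with any 1 library left out. DESeq2 gave -1.55 with an unadjusted p of 0.00243 and no adjusted p.

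Levels of oligodendrocyte markers in the ependymal nuclei moved with Spns2. The 12 markers of mature oligodendrocytes summed to 1029 to 1581 CPM in LPA ependymal cells and 2468 to 3350 CPM in vehicle ependymal cells, and 6 of 10 tested were called lower, among them Mbp (log2 fold change -1.18) and Mobp (-1.33), while none was at 0 throughout. For each 1000 UMIs of these markers, ependymal cells held 6.99, 6.20 and 5.76 UMIs of Spns2 in LPA 1 to 3 and 9.98, 8.97 and 6.76 in vehicle 1 to 3. Mature oligodendrocytes held 5.60 to 6.39 in LPA and 6.19 to 6.40 in vehicle. Without the nuclei that Scrublet called doublets, ependymal Spns2 was 8.75, 6.27 and 6.06 CPM in LPA and 11.9, 4.11 and 12.9 CPM in vehicle. Those groups overlapped, and with 28 UMIs in all the gene fell under the filter and had no test. The part of the oligodendrocyte markers or of doublets in the Spns2 difference was not tested.

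**Figure D5:**
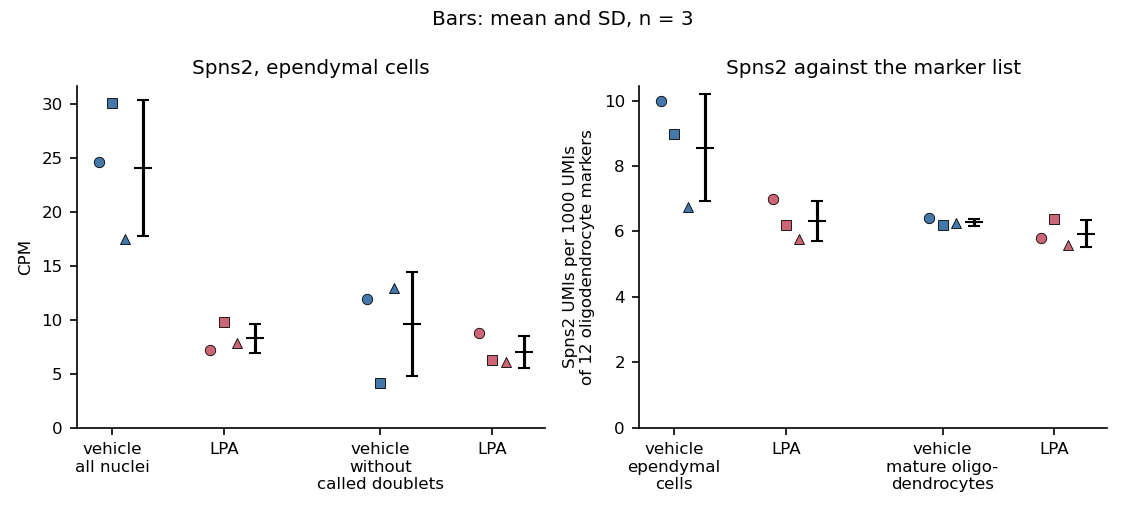
Left, Spns2 (CPM) in ependymal cells with all nuclei and without called doublets. Right, Spns2 UMIs per 1000 UMIs of 12 mature oligodendrocyte markers, in ependymal cells and in mature oligodendrocytes. Vehicle is blue and LPA red, 1 point per library, with the mean and SD (n = 3). The groups overlap once called doublets are left out (6.06 to 8.75 against 4.11 to 12.9). The ratios in ependymal cells are 5.76 to 6.99 in LPA and 6.76 to 9.98 in vehicle. The vehicle ratios and that of LPA 1 lie above the mature oligodendrocytes (5.60 to 6.40), from few Spns2 UMIs in each library.

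The ependymal change of Spns2 was larger than that in committed precursors (difference -1.52, SE 0.38, adjusted p = 0.0289, a type with 0.267% of genes called), mature oligodendrocytes (-1.43, SE 0.34, adjusted p = 0.0216) and oligodendrocyte precursors (-1.54, SE 0.39, adjusted p = 0.0325), and did not differ past the threshold from the 7 other types. In mature oligodendrocytes, where Spns2 was highest, it was 159, 174 and 158 CPM in LPA and 186, 173 and 175 CPM in vehicle (log2 fold change -0.10, SE 0.06, adjusted p = 0.603). In endothelial cells it was 60.1, 63.4 and 77.0 CPM in LPA and 69.0, 57.8 and 67.4 CPM in vehicle (0.04, SE 0.21, adjusted p = 0.983). In microglia it was 33.5, 22.3 and 16.9 CPM in LPA and 24.2, 50.5 and 55.4 CPM in vehicle, overlapping groups (-0.92, SE 0.34, adjusted p = 0.0906), and it passed the threshold without LPA 1 (adjusted p = 0.0328) or vehicle 1 (0.0490). In neurons it was 34.2, 33.5 and 34.4 CPM in LPA and 43.5, 39.4 and 36.3 CPM in vehicle, without overlap (-0.21, SE 0.08, adjusted p = 0.589). Spns2 overlaps Mybbp1a on the opposite strand, which was 6.54 to 15.3 CPM in LPA ependymal cells and 9.24 to 19.5 CPM in vehicle ependymal cells.

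The wider sphingolipid pathway was read from a list of 57 genes, of which 53 were tested in at least 1 type, in 520 combinations. There were 3 calls higher, all among the 39 listed genes tested in microglia, where 5.54% of all genes were called higher. There were 6 calls lower, 3 of 49 in astrocytes (3.2% of all genes) and 3 of 41 in ependymal cells (1.64% of all genes). In microglia, Gna12, a G protein subunit to which some S1P receptors couple, was 367, 374 and 443 CPM in LPA and 218, 272 and 261 CPM in vehicle (log2 fold change 0.63, SE 0.14, adjusted p = 0.00138). Galc, the lysosomal enzyme that breaks down galactosylceramide, was 82.4, 80.6 and 88.0 CPM against 48.3, 33.7 and 23.7 CPM (1.24, SE 0.28, adjusted p = 0.00204). Cerk, which phosphorylates ceramide, rose less (0.43, SE 0.13, adjusted p = 0.0245). The groups did not overlap for any of these 3 genes.

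The genes called lower in ependymal cells were Fa2h (log2 fold change -1.07, SE 0.24, adjusted p = 0.0141), Ugt8a (-0.87, SE 0.20, adjusted p = 0.0179) and Gal3st1 (-1.07, SE 0.27, adjusted p = 0.0295), which make the hydroxylated galactolipids and sulfatide of myelin. The oligodendrocyte markers given above for ependymal cells moved the same way, and none of these 3 was called without the called doublets. In astrocytes Sptssa, a small subunit of serine palmitoyltransferase, fell by 0.46 (SE 0.13, adjusted p = 0.0354), Smpd2, a sphingomyelinase, by 0.32 (SE 0.09, adjusted p = 0.0365) and Ugt8a by 0.43 (SE 0.13, adjusted p = 0.0435), all on the log2 scale, with overlapping groups for Ugt8a. Mature oligodendrocyte markers were also lower in LPA astrocytes, at 876 to 1040 CPM against 1076 to 1529 CPM. By role, in the main edgeR fit, 1 of the 10 tested genes for carriers, other receptors and their regulators was called higher in a type. The remaining calls fell among the 17 genes of ceramide synthesis (1 lower) and the 16 of sphingomyelin and glycosphingolipid metabolism (2 higher and 5 lower). In that fit and by DESeq2, 0 of the 6 genes for S1P breakdown were called (7 of 53 edgeR tests at an unadjusted p below 0.05). The same held for 0 of the 4 ceramidases (2 of 39 tests). Sgpl1, as a member, is not counted among these. With no filter on low counts, Plpp1 of the breakdown genes was called higher in astrocytes and the ceramidase Asah1 in microglia. Neither the members nor this list had a call in choroid plexus epithelium (0.0398% of genes called), where 4 members and 42 listed genes were tested and 4 listed genes had an unadjusted p below 0.05. In smooth muscle cells (0.0752% of genes called) no member passed the filter.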

How the data were processed

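Nuclei were sorted against NeuN from 3 LPA and 3 vehicle mice and sequenced with 10x 3′ chemistry. The deposited matrices hold raw UMI counts per gene and nucleus, made by the authors with Cell Ranger 4.0.0 on the mm10 build with reads over exons and introns, with no normalization. From these counts, nuclei with under 300 genes, over 1% mitochondrial UMIs or UMIs above the third quartile by 1.5 interquartile ranges were dropped, following the filters the study describes. Kept nuclei were clustered (scanpy 1.11.5, 3000 variable genes, 40 components, Leiden resolution 1) and named from fixed marker lists; limits for naming were set after the clusters were seen. UMIs were summed per library and cell type, with at least 10 nuclei in each library, and tested with edgeR 4.0.16 (TMM, filterByExpr, glmQLFit and glmQLFTest, Benjamini-Hochberg over all genes of the type). SE is the log2 fold change over the root of the quasi-likelihood F. Differences between types were tested as interactions with the library as a block. The reference type was the one where the member had its lowest adjusted p in these data. That choice favours large differences, and p was adjusted over genes within a fit, not over the pairs of types.

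Named were the 8 members in every type, the pathway genes by count and at most 3 of lowest adjusted p per type and direction, the 3 most similar genes per member, and genes overlapping a member. Some results under this rule, the similar genes of Sphk2 among them, are not reported here. The members and lists were chosen with earlier results of these data known. The scripts were tested on simulated data. Alternatives were DESeq2 1.42.0, other size factors, no filter on low counts, no mitochondrial filter, no called doublets, Leiden resolution 2, sex or replicate number as terms, unnamed clusters given to a type, and each library left out. Subsets within a class, sub-clusters and whole-library sums were added after seeing the data. Loci came from GENCODE M21 and promoters from RefSeq, which had an entry for 7 of the 8 members. Libraries held 48852970 to 65688644 UMIs.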

Additional observations from a re-analysis of the deposited data

Results flagged for a closer look

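The effect of LPA on 3 members differed between cell types by the interaction test (edgeR, adjusted p below 0.05), and these differences are given as values of log2 fold change. The reference type of each gene was picked by its lowest adjusted p in these same data, which favours large differences. For Sgpl1, the effect in microglia exceeded that in pericytes by 2.07, neurons by 1.82, meningeal fibroblasts by 1.77, choroid plexus epithelium by 1.65, mature oligodendrocytes by 1.63, astrocytes by 1.62, newly formed oligodendrocytes by 1.52, oligodendrocyte precursors by 1.46 and committed precursors by 1.17. For S1pr3, the effect in astrocytes exceeded that in oligodendrocyte precursors by 1.53, neurons by 1.24 and pericytes by 1.21. For Spns2, the effect in ependymal cells minus that in oligodendrocyte precursors was -1.54, minus that in committed precursors -1.52 and minus that in mature oligodendrocytes -1.43. The Spns2 differences rest on 69 ependymal UMIs, the level without called doublets had no test, and the 12 oligodendrocyte markers moved with it in these nuclei.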

How the results depend on the processing

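The higher calls of Sgpl1 in microglia and S1pr3 in astrocytes held under each of the settings below and with each library left out, with log2 fold changes of 1.76 to 1.80 and 1.16 to 1.54 when 1 library was left out. S1pr3 lost its call in astrocytes outside the Gfap-rich cluster. The 2 lower member calls became 1 with DESeq2 and 1 without called doublets. With 1 library left out, member calls ranged from 2 to 3 higher and 1 to 2 lower, and pathway calls from 1 to 4 in either direction. The lower calls were not always the same ones. Without LPA 1, and also without vehicle 1, both S1pr1 in astrocytes and Spns2 in ependymal cells lost their call. Spns2 in microglia was called lower there instead. Only the sign of the S1pr1 estimate changed in Gfap-rich astrocytes, with a size under its SE (log2 fold change 0.0598, SE 0.156, edgeR adjusted p = 0.888). Mean CPM there was 102 in LPA and 105 in vehicle, so no rise is shown. Pathway calls higher, 3 in the main analysis, were 5 with no filter on low counts (adding Asah1 in microglia and Plpp1 in astrocytes) and 6 with unnamed clusters given to a type. Pathway calls lower, 6 in the main analysis, were 2 with DESeq2, 10 with no filter and 3 without called doublets. Giving unnamed clusters to a type moved the level of S1pr3 in pericytes from 181 to 108 CPM, Sphk1 in meningeal fibroblasts from 76.5 to 62.2 CPM and Spns2 in mature oligodendrocytes from 171 to 149 CPM, and no mitochondrial filter moved S1pr5 in newly formed oligodendrocytes from 50.6 to 58.8 CPM. The cause of these changes was not tested.

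The replicate numbers were not treated as pairs. Deviations of same-numbered libraries correlated at 0.02 to 0.14 for number 1, 0.06 to 0.19 for number 2 and -0.16 to 0.01 for number 3 over 14 types. The 2 libraries also shared a sex for numbers 1 and 2 but not for number 3. The same-numbered correlations alone therefore cannot tell a shared litter or day from sex. Same-sex libraries of different numbers correlated as well. In astrocytes LPA 1 with vehicle 3 was 0.21 and LPA 3 with vehicle 2 was 0.17, against 0.09 for number 1 and 0.17 for number 2. In microglia these same-sex pairs were at 0.06 and 0.07, against 0.06 for number 1 and 0.11 for number 2. With the replicate number as a block there were 2 member calls higher and 2 lower, the same genes. Sex as a term also left 2 and 2. Depth limits S1pr2, Sphk1 outside the meninges and every member in macrophages and smooth muscle cells, where most counts were under 20 UMIs.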
